A study of Homo sapiens with 4 samples.

Results

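The genes described here are 47 genes of the interferon response and of RNA and DNA sensing, out of 60671 genes in the count table. They were chosen by symbol, from a list drawn up with the differences between the shMETTL14 and shNC libraries already known, so their fold changes and calls are given as a description and not as independent evidence. All 47 symbols were found in the table, 1 row each, with RIGI, STING1 and CGAS also searched under their older symbols. They fall into 4 groups by role, namely 7 sensors and adaptors, 7 RNA-acting enzymes, 8 receptors and transcription factors, and 25 induced effectors.

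SK-N-BE(2), the cell line from which RNA was sequenced, is a long-established line of human neuroblastoma that carries extra copies of MYCN. The cells carried either shNC, a control short hairpin RNA, or shMETTL14, a hairpin against METTL14, which encodes a subunit of the enzyme that places N6-methyladenosine (m6A) on RNA. Per the methods of the study, hairpins were delivered with the lentiviral vector pLKO.1 and infected cells were selected with puromycin, so both groups had been exposed to a lentivirus, and the labels do not say which of the METTL14 hairpins was used. Each group had 2 libraries, with 18925786 to 19886214 reads counted in genes, and nothing says that they came from separate cultures, so that errors and p-values measure the spread between these libraries only.

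Cells detect foreign or misplaced nucleic acid with receptors in the cytosol (RIG-I and its relatives for double-stranded RNA, cGAS for DNA) and in endosomes (TLR3). Signals from the cytosolic receptors pass through the adaptors MAVS and STING to IRF3 and IRF7, which switch on type I interferon genes. Secreted interferon binds the receptor made of IFNAR1 and IFNAR2, and a complex of STAT proteins and IRF9 then turns on interferon-stimulated genes, among which are many of the sensors themselves. m6A is one of the marks known to help a cell tell its own RNA from foreign RNA, which is the background for looking at these genes after METTL14 knockdown. m6A itself was not measured in these libraries.

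The target of the hairpin was checked first. METTL14 had 753 and 754 counts in the shNC libraries and 303 and 321 in the shMETTL14 libraries, a log2 fold change of -1.26 (SE 0.0832). All 10 markers of neuroblastoma identity were detected in every library. In RNA from whole cultures, fewer cells of a kind and less RNA per cell cannot be told apart. The 8 leukocyte markers together had 46 and 55 counts in the shNC libraries and 46 and 41 in the shMETTL14 libraries, most of them from PTPRC, and IL3RA and LILRA4, markers of the interferon-producing plasmacytoid dendritic cell, had 0 counts in all 4, CLEC4C had 1 count in all, and TCF4 of the same list, which neural cells also express, had 3672 and 3386 against 1891 and 1914. The 4 endothelial markers together had 49 and 34 counts against 15 and 29, mostly VWF. What part such cells have in the results was not tested.

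The genes did not move as one block. Of the 47 genes, 36 passed the filter on low counts and were tested with the edgeR quasi-likelihood test on all 16309 tested genes, and 19 of these 36 were called at an adjusted p under 0.05, 9 higher and 10 lower in shMETTL14 cells. Across all tested genes 52.5% were called, 27.2% higher and 25.3% lower, so the share of called members, 52.8%, lay beside that of the transcriptome in this fit. With DESeq2 the shares lay further apart, at 25.0% of these 36 genes and 33.9% of all genes with an adjusted p. The median log2 fold change of the 36 genes was 0.02, where that of all tested genes was -0.001. The balance of calls depends on the scaling: upper quartile scaling gave 3550 genes higher and 4961 lower where TMM gave 4438 and 4123. Changes of at least 2-fold were called in 6 of the 36 (STING1, XAF1, IFIT2, CMPK2, ISG15 and ISG20), against 8.79% of all tested genes. All 6 had fewer than 80 counts in every library, and 3 of them, XAF1, CMPK2 and ISG15, had passed the filter through 1 group alone, as TLR3 and CGAS also had. With 2 libraries against 2, 0.333 is the smallest two-sided p an exact permutation test can give, so each call rests on the variance that edgeR shares across genes.

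**Figure D1:**
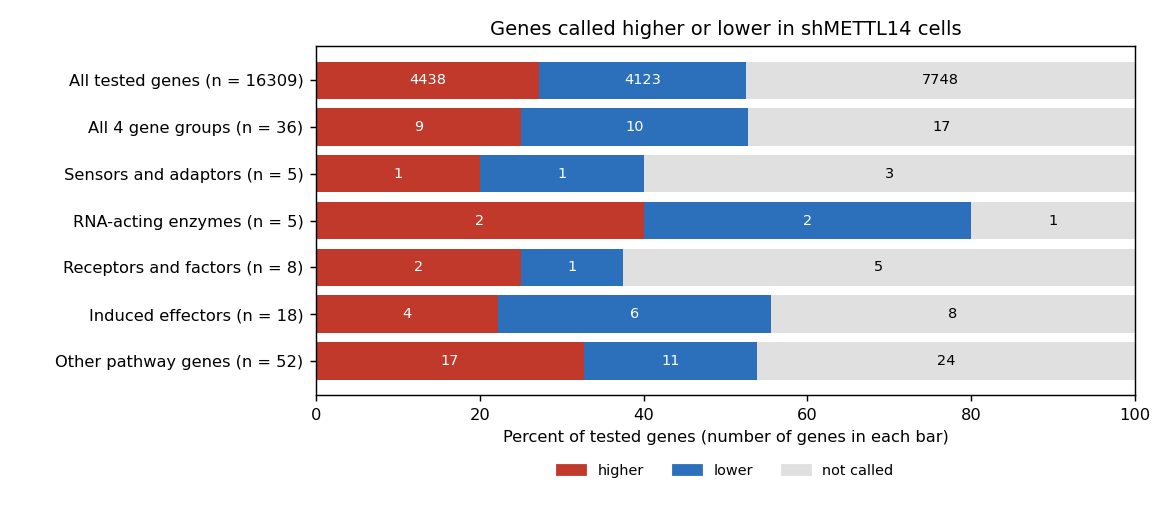
Percent of tested genes called higher (red), called lower (blue) or not called (grey) in shMETTL14 against shNC cells at an edgeR adjusted p under 0.05, with the number of genes written in each bar. The bar of the 36 tested interferon and sensing genes (9 higher, 10 lower, 17 not called) has nearly the same make-up as the bar of all 16309 tested genes.

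The remaining 11 genes were too weakly expressed to test, and most are textbook markers of an interferon response. IFIH1, OAS2, OASL, MX2 and IFITM1 had 3 counts or fewer in every library, which is the floor used here. MX1, a dynamin-like GTPase that blocks virus replication, had 2 and 2 counts in the shNC libraries and 9 and 6 in the shMETTL14 libraries, a ratio of summed counts of 3.77 with an exact 95% interval from 1.2 to 15.6. IFI44 had 0 and 3 against 6 and 5 counts, a ratio of 3.69 with an interval from 0.975 to 20.6. IFI44L, its neighbour, went the other way, with 7 and 7 against 3 and 3 counts, 0.431 of the control level with an interval from 0.136 to 1.19. These intervals cover counting error only.

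IFIT3 and RSAD2, also not tested, had a raised count in 1 library alone. IFIT3, an antiviral protein, had 4 and 4 counts in the shNC libraries and 4 and 14 in the shMETTL14 libraries. RSAD2, which encodes the antiviral enzyme viperin, had 4 and 5 against 2 and 14 counts. In both genes only shMETTL14 library 2 lay above the control libraries, and shMETTL14 library 1 did not. DHX58 lay at the edge of the floor, with 3 and 1 against 4 and 2 counts.

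**Figure D2:**
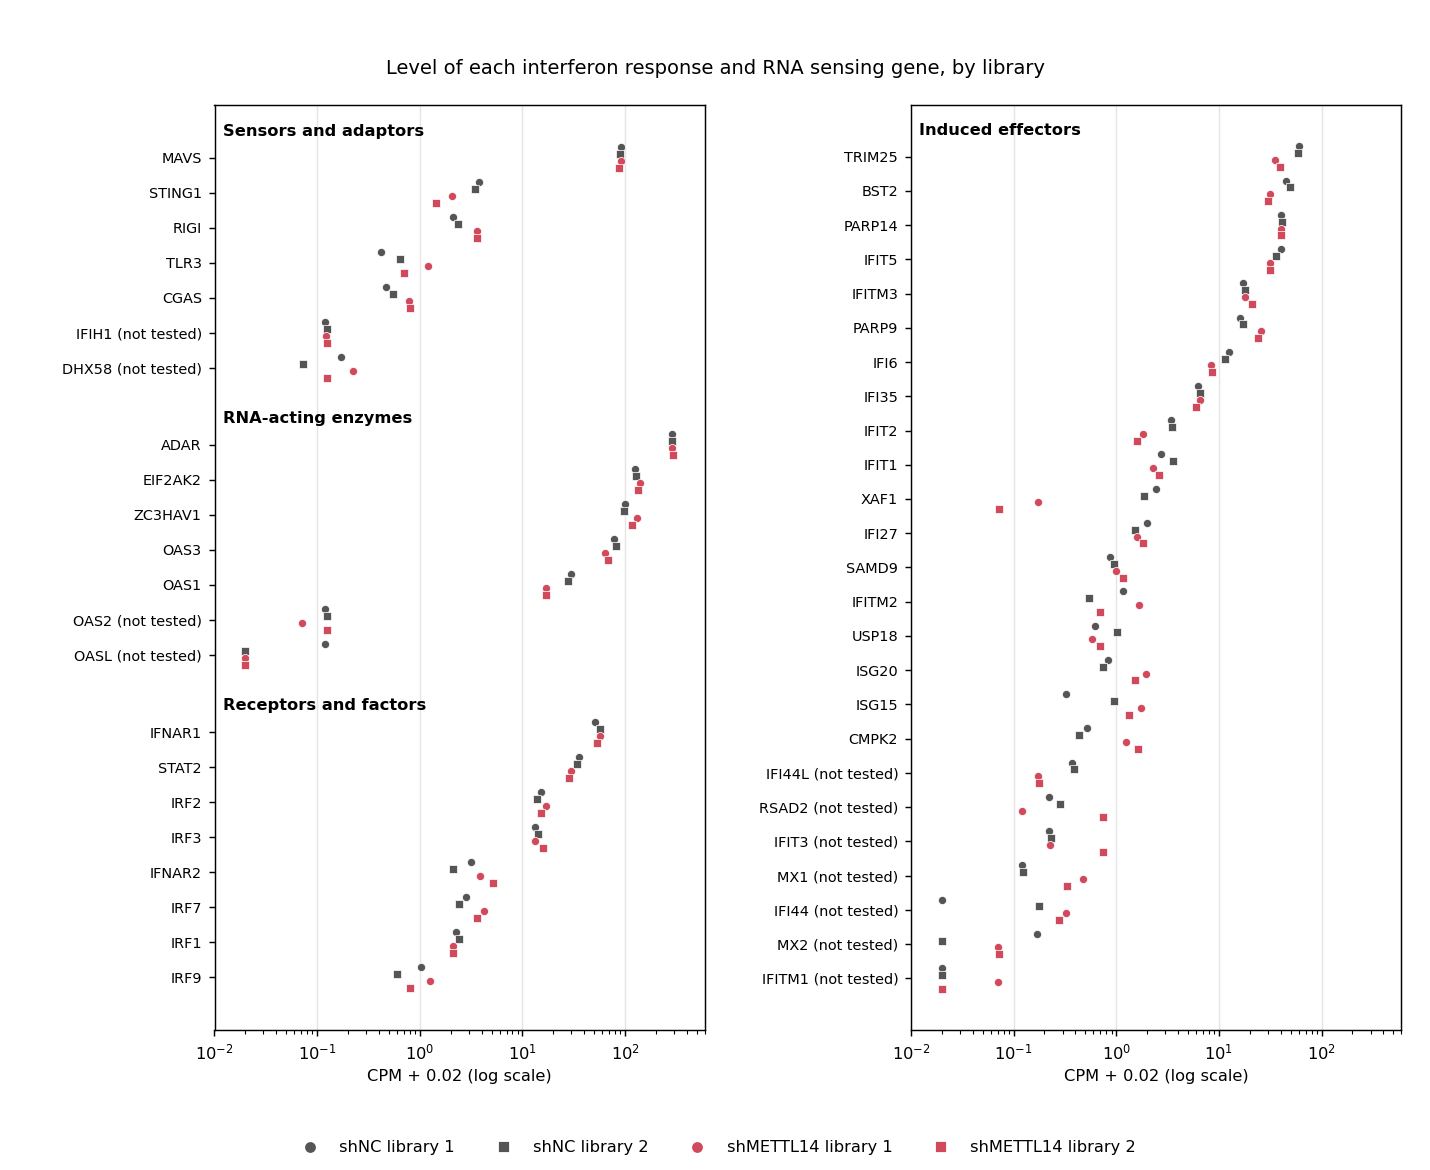
Level of each of the 47 genes in each library, as CPM plus 0.02 on a log axis, grouped by role and sorted by the shNC mean; grey points are shNC and red points shMETTL14, circles library 1 and squares library 2. The levels run from 0 to the 285 to 295 CPM of ADAR, and in XAF1 the red points stand about an order of magnitude to the left of the grey ones.

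Among the sensors and adaptors, RIGI rose and STING1 fell, and the other 3 tested genes were not called. RIGI encodes RIG-I, the cytosolic sensor of RNA with a 5′ triphosphate. It had 42 and 45 counts in shNC cells and 70 and 69 in shMETTL14 cells, a log2 fold change of 0.68 (SE 0.236). The groups did not overlap, as in 27 of the 36 tested members and 75.5% of all tested genes. STING1, the adaptor that cGAS signals through, had 75 and 65 against 40 and 27 counts, a log2 fold change of -1.05 (SE 0.261). The gene, at chr5:139475534-139482935 (GENCODE 29, GRCh38, minus strand), shares no exonic base with another annotated gene. Both shMETTL14 libraries were below both shNC libraries, and shMETTL14 library 2 was the lowest.

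MAVS, the mitochondrial adaptor on which RIG-I signals, was the most abundant of the group and hardly differed, with 1811 and 1709 against 1775 and 1661 counts (log2 fold change -0.03, SE 0.0483). CGAS, the DNA sensor, had 9 and 10 against 15 and 15 counts (log2 fold change 0.66, SE 0.479), and TLR3, the endosomal sensor of double-stranded RNA, had 8 and 12 against 23 and 13 (0.85, SE 0.482). Neither was called, and both had passed the filter through the shMETTL14 group alone. IFIH1, which encodes the sensor of long double-stranded RNA, had 2 counts in each of the 4 libraries. The median log2 fold change of the 5 tested sensors and adaptors was 0.66, but it is the value of CGAS, and without shMETTL14 library 1 the median was 0.40. With a filter of at least 10 counts in every library, which drops CGAS and TLR3, it was -0.04, the value of MAVS. Without 1 library the call of RIGI was lost in 3 of 4 cases, with 0.60 without shNC library 1 and 0.69 without either shMETTL14 library.

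The RNA-acting enzymes differed in direction, with ZC3HAV1 and EIF2AK2 called higher and OAS1 and OAS3 lower. ADAR, which edits adenosine to inosine in double-stranded RNA and so keeps it from the sensors, had 5677 and 5489 counts in the shNC libraries and 5621 and 5672 in the shMETTL14 libraries, a log2 fold change of 0.03 (SE 0.039) that was not called. EIF2AK2, which encodes the RNA-activated kinase PKR that halts translation, had 2500 and 2426 against 2710 and 2573 counts, and was called at 0.11 (SE 0.0437). ZC3HAV1, the antiviral zinc finger protein that targets CpG-rich RNA for decay, rose from 1981 and 1864 to 2540 and 2264 counts (log2 fold change 0.33, SE 0.0498). Each of these differences is under 1.5-fold, and that of EIF2AK2 was called in 2 of the 11 alternative fits, and in none of the 4 that left out a library (0.09 to 0.14).

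Of the oligoadenylate synthetases, which make the messenger that activates RNase L, OAS1 and OAS3 fell. OAS1 had 594 and 532 counts in shNC cells and 334 and 329 in shMETTL14 cells, at -0.75 on the log2 scale (SE 0.0864), so that 59.3% of the control level remained. OAS3, which lies next to it on chromosome 12, fell from 1559 and 1551 to 1261 and 1325 counts (-0.26, SE 0.0528). OAS2, the third gene of that cluster, stayed at 1 or 2 counts in every library, and OASL had 2 and 0 counts in the shNC libraries and 0 in both shMETTL14 libraries. Summed over the 7 RNA-acting enzymes the level was 617.8 and 619.5 CPM in the shNC libraries and 636.7 and 632.0 CPM in the shMETTL14 libraries, since ADAR, EIF2AK2 and ZC3HAV1 outweigh the OAS genes.

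Of the receptors and transcription factors, IFNAR2 and IRF7 rose, STAT2 fell, and 5 were not called. IFNAR1, a chain of the type I interferon receptor, had 1026 and 1089 counts in the shNC libraries and 1104 and 1026 in the shMETTL14 libraries (log2 fold change 0.02, SE 0.0626), and the groups overlapped. IFNAR2, the other chain, had 63 and 40 against 76 and 100 counts (0.78, SE 0.235). It shares 2038 exonic bases with a protein-coding model on the same strand, where reads may be lost as ambiguous, so its level is uncertain. Its call was lost without shNC library 2 (0.52) and without shMETTL14 library 2 (0.57).

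STAT2, which joins IRF9 in the complex that reads interferon signals, fell from 712 and 656 to 581 and 552 counts (-0.26, SE 0.075). The call was lost without shMETTL14 library 2 (-0.23). IRF9 had 20 and 11 against 24 and 15 counts (0.34, SE 0.434) and was not called; it too shares exonic bases, 1838 of them, with a model on its own strand. IRF7, the factor that amplifies interferon production, had 56 and 46 against 82 and 69 counts, and was called at 0.57 (SE 0.226), a call lost without shNC library 2 (0.47) and without shMETTL14 library 1 (0.46). IRF3, which starts that production, had 266 and 271 against 258 and 308 counts (0.09, SE 0.112). IRF1, an activator that interferon induces, had 45 and 46 against 41 and 40 counts (-0.16, SE 0.266). IRF2, its antagonist at many promoters, had 305 and 265 against 331 and 294 counts (0.14, SE 0.104). None of these 3 was called, and in IRF2 and IRF3 the groups overlapped.

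**Figure D3:**
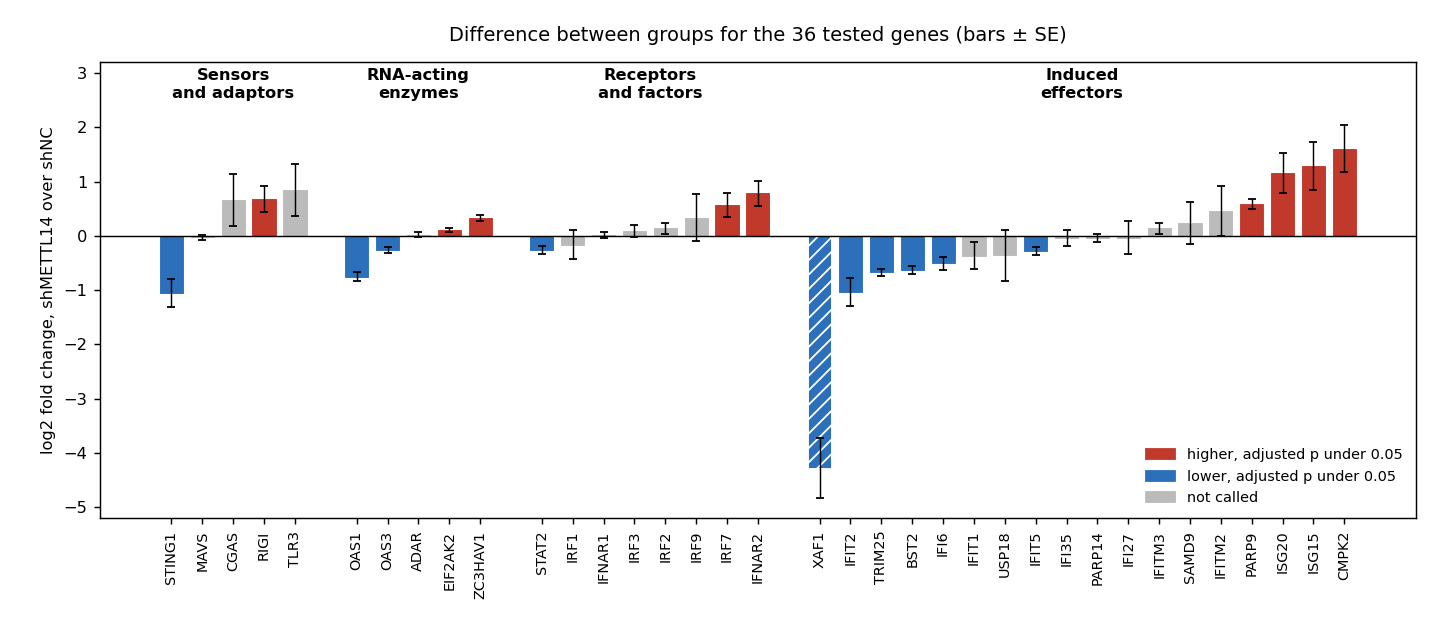
Log2 fold change of the 36 tested genes, shMETTL14 over shNC, with the standard error as bars, grouped by role and sorted within each group; red and blue are called higher and lower, grey is not called. Each role group holds values on both sides of 0, and the hatched bar of XAF1, with 1 to 3 counts in the shMETTL14 libraries, is a fitted value that depends on the prior count.

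XAF1 had the largest difference of all 47 genes. It encodes an interferon-induced protein that promotes apoptosis by antagonising the inhibitor XIAP, and GENCODE 29 places it at chr17:6755447-6775647 (GRCh38, plus strand). The shNC libraries held 48 and 35 counts, and the shMETTL14 libraries 3 and 1. The summed counts were 20.6 times higher in shNC cells, with an exact 95% interval from 7.76 to 77.4 for counting error only. The gene shares 2535 exonic bases with PRAL, a transcript model on the other strand. It passed the filter through the shNC group alone, where it was high, and was not tested with a filter of at least 10 counts in every library.

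Among the other induced effectors, 5 fell. IFIT2, an RNA-binding inhibitor of translation, had 68 and 66 counts in the shNC libraries and 35 and 30 in the shMETTL14 libraries (log2 fold change -1.03, SE 0.255). TRIM25, the ubiquitin ligase known to activate RIG-I, fell from 1190 and 1130 to 690 and 761 counts (-0.67, SE 0.066). TRIM25 shares exonic bases with 4 annotated genes, at most 538 with a single gene, among them the protein-coding C17orf67 on its own strand. IFIT2 shares exonic bases with LIPA, a protein-coding gene on the other strand. BST2, also named tetherin, which holds budding virus at the cell surface, fell from 907 and 949 to 617 and 579 counts (-0.63, SE 0.0718). The groups did not overlap in these 3 genes, which was also so in 75.5% of all tested genes. IFI6, a small mitochondrial protein with anti-apoptotic activity, had 251 and 219 against 165 and 164 counts (-0.50, SE 0.122). IFIT5, which binds RNA with a 5′ phosphate, changed less, at -0.28 (SE 0.0765), and its call was lost without shNC library 1 (-0.20).

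The IFIT genes lie together on the plus strand of chromosome 10, between 89283694, where IFIT2 starts, and 89421001, where IFIT5 ends. Within this cluster IFIT2 and IFIT5 fell, and IFIT1, at 54 and 68 against 44 and 50 counts, had a log2 fold change of -0.37 (SE 0.248) that was not called. IFIT3 had the pattern of 1 raised library described above.

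Effectors that rose were PARP9, CMPK2, ISG15 and ISG20. PARP9, an ADP-ribosyltransferase that works with the ubiquitin ligase DTX3L in interferon signalling, rose from 318 and 327 to 499 and 462 counts (0.58, SE 0.0901). DTX3L lies head to head with PARP9 on chromosome 3 and shares 217 exonic bases with it. It was looked up only after the values of PARP9 were seen, and it had 500 and 415 against 396 and 378 counts, an opposite log2 fold change of -0.23 (SE 0.0919, edgeR adjusted p 0.0397).

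CMPK2, a mitochondrial nucleotide kinase, had 10 and 8 counts in the shNC libraries and 24 and 31 in the shMETTL14 libraries (1.61, SE 0.431). It lies head to head with RSAD2 on chromosome 2, whose count lay above the controls in 1 library only. ISG15, a ubiquitin-like modifier, had 6 and 18 against 34 and 25 counts (1.29, SE 0.447), and the shNC libraries themselves differed. ISG20, an exonuclease that degrades RNA, had 16 and 14 against 38 and 29 counts (1.16, SE 0.371). In these 3 genes the groups did not overlap, as in 75.5% of all tested genes. Each of the 3 lost its call when a library was left out. CMPK2 lost it without shMETTL14 library 2 (1.41). ISG15 lost it without shNC library 1 (0.68) or shMETTL14 library 1 (1.07). ISG20 lost it without shNC library 2 (1.10) or shMETTL14 library 1 (0.97).

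A further 8 effectors were tested and not called. Their log2 fold changes ran from -0.37 in IFIT1 to 0.46 in IFITM2. PARP14, IFI35, IFI27 and IFITM3 lay within 0.15 of 0. IFITM3, which stops virus fusion in endosomes, had 342 and 345 against 353 and 400 counts (0.14, SE 0.0971). IFITM2 had 23 and 10 against 32 and 13 counts, so that the replicates of each group differed widely and the groups overlapped. IFITM1, IFITM2 and IFITM3 are close copies among which reads can be lost or split. USP18, the protease that removes ISG15 and damps the receptor, had 12 and 19 against 11 and 13 counts (-0.36, SE 0.468). SAMD9 had 17 and 18 against 19 and 22 counts (0.24, SE 0.394).

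The sum of the 25 induced effectors was 253.4 and 255.1 CPM in the shNC libraries and 211.7 and 215.4 CPM in the shMETTL14 libraries, a gap that TRIM25 and BST2, both abundant, largely make up. The median log2 fold change of the 18 tested effectors was -0.04, also with XAF1 set at 3 counts per library. The 0.66 of the 5 tested sensors and adaptors is the value of CGAS, which passed the filter through the shMETTL14 group alone. Where every library had to hold 10 counts or more, the medians were -0.0562 for the effectors and -0.0435 for the sensors and adaptors. The latter is the value of MAVS, with RIGI at 0.67 and STING1 at -1.07 on either side. Each sensor median thus rests on 1 gene and cannot decide whether the sensors differ from the effectors. The median of the effectors ran from -0.17 to -0.0047 with 1 library left out. Each group held genes on both sides of 0, and the difference between the groups was not tested.

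Levels between genes can be compared only per length. In CPM per kb of exons (GENCODE 29, all isoforms joined), BST2 was the highest of the 47 genes in shNC cells at 42.5, followed by ADAR at 29.5, IFI6 at 13.9, IFITM3 at 13.05, ZC3HAV1 at 11.9 and EIF2AK2 at 11.7. In shMETTL14 cells the same measure was 27.5 for BST2 and 30.02 for ADAR, which changed places. The sensors RIGI and CGAS were at 0.512 and 0.117 in shNC cells, and the adaptors MAVS and STING1 at 7.65 and 0.93.

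Interferon-stimulated genes are bound by IRF and STAT proteins at the interferon-stimulated response element, whose core is 2 copies of GAAA with 2 bases between them. RefSeq promoter windows (GRCh38.p14, 250 bases before to 50 after the start) were at hand for 34 of the 47 genes. The 10-base word GAAANNGAAA, searched on both strands with overlapping copies allowed, was present in 19 of these 34 and in 3.65% of all 27305 windows. Of the 19 genes with the word, 3 were called higher, 4 lower, 6 not called and 6 not tested. Of the 15 without it, 4 were called higher, 4 lower, 6 not called and 1 not tested. Across all tested genes 27.2% were called higher and 25.3% lower, and nothing is read from the counts of either set. The GAS word TTCNNNGAA, the kind of site that STAT dimers bind, was present in 10 of the 34 and in 7.88% of all windows.

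Windows of 30 bases from 8 genes are shown because they carry the same word beside opposite or absent changes. They are written 5′ to 3′ on the strand of the gene, from GRCh38.p14. The word, or overlapping copies of it, is in capitals (as its reverse complement where it begins with TTTC):
BST2 (lower; chr19:17405738-17405767, minus strand): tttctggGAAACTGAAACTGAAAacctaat
IFI6 (lower; chr1:27672266-27672295, minus strand): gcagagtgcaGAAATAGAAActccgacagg
IFIT5 (lower; chr10:89414539-89414568, plus strand): ttacgtttagTTTCGATTTCttaagtttca
OAS3 (lower; chr12:112938452-112938481, plus strand): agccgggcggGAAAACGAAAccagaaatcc
ISG15 (higher; chr1:1013377-1013406, plus strand): gcctcggGAAAGGGAAACCGAAActgaagc
ISG20 (higher; chr15:88638937-88638966, plus strand): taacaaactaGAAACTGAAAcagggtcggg
IFITM3 (not called; chr11:320876-320905, minus strand): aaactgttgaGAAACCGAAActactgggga
IFIH1 (at the floor; chr2:162318686-162318715, minus strand): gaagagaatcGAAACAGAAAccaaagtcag

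BST2, which fell, and ISG15, which rose, both hold overlapping copies of the word, which begin 130 and 113 bases before the start, and IFIH1, which holds it too, was at 2 counts throughout. XAF1, CMPK2 and TRIM25, with some of the larger changes, have no match in this window, which says only that these letters are not there.

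Genes upstream of the response were read from a list of 90 further pathway genes, set out by role. Transcripts of interferon itself were absent or nearly so. Of 11 interferon genes, 7 had no count in any library, IFNB1 and IFNG among them, and the others had at most 1 count in a library. A count of 0 allows up to 3 counts in a library of this depth. Of 5 genes for secreted products of the response, the chemokines CXCL9, CXCL10 and CCL5 also had no count in any library. The chemokine CXCL11 had 1 and 2 counts against 5 and 0, and TNFSF10, a death ligand, had 2 and 1 against 1 and 1.

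The kinases of the receptor were expressed. JAK1, the kinase bound to IFNAR2, had 1345 and 1355 counts in the shNC libraries and 1577 and 1510 in the shMETTL14 libraries, a log2 fold change of 0.20 (SE 0.0513, edgeR adjusted p 0.00218). TYK2, the kinase bound to IFNAR1, had 1273 and 1226 against 1405 and 1387 counts, at 0.17 (SE 0.0516, edgeR adjusted p 0.0088). SOCS1, an inhibitor of JAK kinases, was the only gene of this list called with at least 2-fold change, with 6 and 7 against 17 and 17 counts, and it passed the filter through the shMETTL14 group alone (1.38, SE 0.505, edgeR adjusted p 0.0263). Receptor, kinase and STAT genes were called in 9 of 11 tested, 6 higher and 3 lower. Across all tested genes 52.5% were called, 27.2% higher and 25.3% lower.

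Of this list 52 genes passed the filter, 17 of them called higher and 11 lower, or 53.8% of those tested, where 52.5% of all tested genes were called, 27.2% higher and 25.3% lower. In the list of 32 other interferon-induced genes, 20 passed it, with 4 called higher and 2 lower. Genes that carry sensor signals to the IRF factors gave 2 higher and 3 lower of 10 tested, and genes that clear or process nucleic acids gave 5 higher and 3 lower of 11 tested. The median log2 fold change of the 52 tested genes was 0.0055, again beside that of all tested genes.

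**Figure D4:**
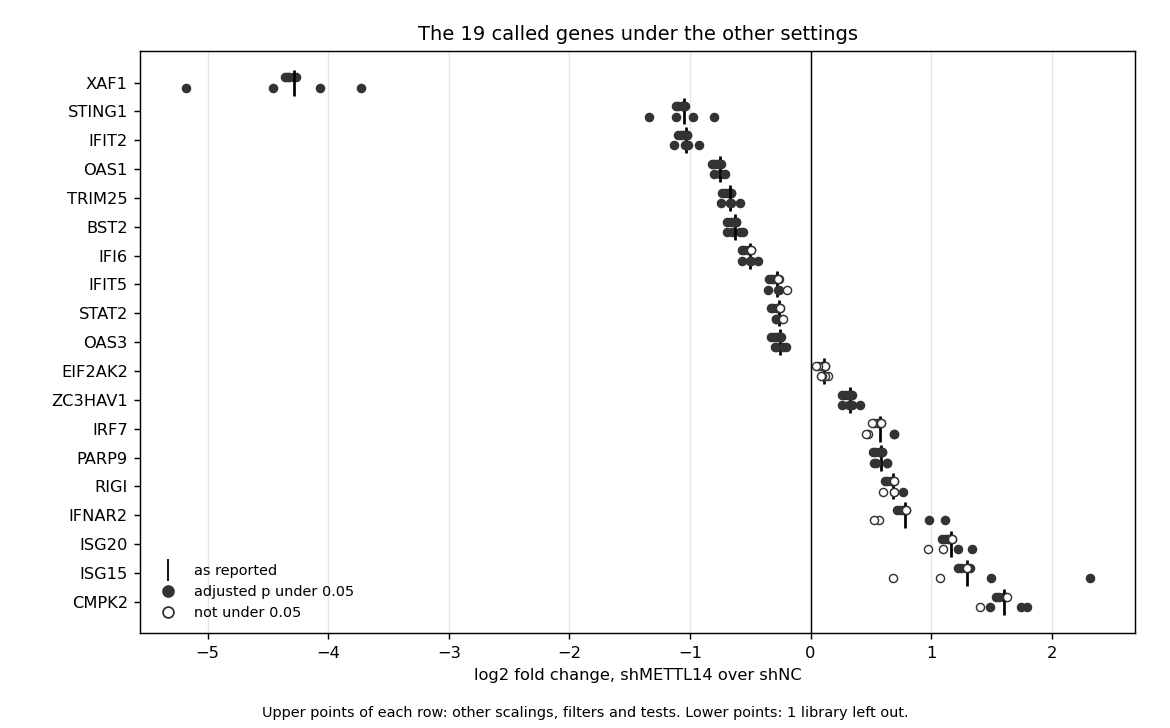
Log2 fold change of the 19 called genes as reported (vertical tick) and under the alternatives (points), filled where the adjusted p was under 0.05 and open where it was not; the upper points of each row are other scalings, filters and tests, the lower ones leave out 1 library. The lower genes keep filled points almost throughout, and of the higher genes PARP9 and ZC3HAV1 alone have no open point.

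The calls differed in how firmly they held. A total of 9 genes were called in every alternative that tested them, 2 higher (PARP9 and ZC3HAV1) and 7 lower (XAF1, STING1, IFIT2, OAS1, OAS3, TRIM25 and BST2). XAF1 is counted here although it entered the fits only through its high group. The share of all tested genes called in every alternative is not given here, so nothing is read from the split between higher and lower. With DESeq2, 2 rather than 9 genes were called higher and 7 rather than 10 lower, where DESeq2 called 19.2% of all genes higher and 14.7% lower. With 1 library left out, calls in both directions became fewer among all tested genes. Among these genes the higher calls lost a larger share than that, and the lower calls were nearly all kept. The cause of this was not tested. The genes whose calls were lost with DESeq2 were RIGI, EIF2AK2, IFNAR2, IRF7, CMPK2, ISG15 and ISG20 among the higher and STAT2, IFIT5 and IFI6 among the lower.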

How the data were processed

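The authors deposited 1 table of raw counts per Ensembl gene with no normalization. The submitters' processing notes name HISAT2 2.1.0, StringTie 1.3.6, HTSeq 0.13.5 and edgeR, and the build GRCh38. The strand setting and annotation release are not given in the sources used here. Of the 47 genes, 18 share exonic bases with another annotated gene, 13 of them with a protein-coding one, where reads may be lost as ambiguous or credited wrongly. The 5 lines that name no gene, 19.1% to 19.9% of a library, were left out.

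The quasi-likelihood test of edgeR 4.0.16 (R 4.3.3) was run on the counts after TMM scaling, with filterByExpr (minimum count 10, minimum total 15) and group as the only term, over all 16309 genes, with Benjamini-Hochberg adjustment at 0.05. Standard errors were derived from the F statistic. CPM are scaled by TMM library sizes. A group with 3 counts or fewer in both libraries was at the floor, and its ratio is given from summed counts with an exact Clopper-Pearson interval. The mean chi-square per gene between replicates was 2.80 for shNC and 2.30 for shMETTL14. Both lie above the value near 1 of sampling noise, so 2 libraries per group were kept. This does not show that they came from separate cultures. The biological coefficient of variation estimated by edgeR was 3.45%.

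Named genes were all 47 members, with each library given for sensors, receptors, factors and any gene with an absolute log2 fold change of at least 0.5. Of the other pathway genes, SOCS1 (called, at least 2-fold), JAK1, TYK2 and IFNB1 were named by rule, some items are not reported here, and the other ligands, chemokines and DTX3L after their values were seen. The members, lists and rules were chosen with earlier results of these data known. Alternatives were RLE, upper quartile and library size scaling, 2 other filters, DESeq2 1.42.0, a replicate block and each library left out.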

Additional observations from a re-analysis of the deposited data

How the results depend on the processing

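Of 391 results of single genes under the alternatives, 342 kept direction and side of the threshold, 34 lost their call and 15 changed sign, none of the last in a called gene. Members called higher fell from 9 to 2 with DESeq2, where all genes called higher fell from 4438 to 3143. Companion genes called higher fell from 17 to 11 with DESeq2 and 11 with upper quartile scaling. Companion genes called lower fell from 11 to 5 with DESeq2, and all genes called lower from 4123 to 2413. The cause was not tested. The median of the tested effectors moved from -0.038 to -0.083 with library size alone and -0.105 with upper quartile scaling, in which the median of all tested genes also moved, to -0.046 and -0.069. The median of the tested sensors and adaptors went from 0.66 to -0.044 with at least 10 counts in every library. This filter removes CGAS and TLR3 and leaves MAVS as the median gene.

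With 1 library left out, where the lone library of a group is assumed to vary like the pair of the other group, members called higher ranged from 4 to 6, companion genes called lower from 7 (without shMETTL14 library 2) to 11, the effector median from -0.165 to -0.0047 and the sensor median from 0.398 to 0.768. Among all tested genes, calls in both directions also became fewer in each of these fits. The higher calls of the members lost a larger share than those of all tested genes, and the cause was not tested. The sign changed in ADAR (-0.042 upper quartile, -0.019 library size alone) and IFNAR1 (-0.049 and -0.026), and with a library left out in IFNAR1 (-0.057 to 0.097), IFI27 (-0.197 to 0.162), IFI35 (-0.102 to 0.034), USP18 (-0.681 to 0.043), IRF9 (-0.019 to 0.794), IFITM2 (-0.312 to 1.13), MAVS (-0.058 to 0.018) and IRF3 (-0.052 to 0.223).

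Same-numbered libraries share only a number, with a correlation of deviations of -0.0018 (Pearson) and 0.0221 (Spearman) across genes. With the replicate block, members were called higher in 9 and lower in 10 cases, and no call of a member changed.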
